A study of Homo sapiens with 14 samples.

Results

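The immediate early genes considered here are 7 subunits of the AP-1 transcription factor (FOS, FOSB, FOSL1, FOSL2, JUN, JUNB and JUND), the zinc finger factors EGR1 and EGR3, and IER2. They were picked out of the deposited table of gene counts by name, by a rule that uses no measured value, although earlier results of these data were known when the genes were chosen. All 10 were found among its 27142 genes, and all 10 passed the filter on low counts that left 13371 genes for testing.

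RNA was sequenced from IMR90 cells, an established strain of human fetal lung fibroblasts labelled as wild type and grown in medium with 10% fetal bovine serum. The cells were left untreated, with water as the vehicle (2 libraries), or were given 20 uM 2',3'-dideoxycytidine (ddC) for 24, 48, 72 or 96 h (3 libraries per time). ddC is a chain-terminating cytidine analog that stops the copying of mitochondrial DNA, and the series asks how transcripts change while that DNA is being lost. The design text calls the libraries biological replicates, and it sets the untreated cells at 0 h whereas their sample labels say 4 days, so their time in culture is uncertain. All groups share 1 cell strain and the same serum.

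Immediate early genes are transcribed within minutes of a growth factor or stress signal, without new protein synthesis, through factors already bound at their promoters, and their RNAs are short-lived. Fos proteins pair with Jun proteins to form AP-1, which binds a short palindrome in DNA, whereas Jun proteins can also pair with each other or with ATF proteins. In cultured fibroblasts, serum starts a wave of FOS, FOSB, JUNB, EGR and IER2 transcription, followed by FOSL1 and FOSL2, and in cells that stay in serum the late Fos members prevail.

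Total counts per library ran from 9398703 to 12147402, and scaling factors from 0.971 to 1.02. The level of the nuclear RNA MALAT1 varied from 52.1 to 409 counts per 1000000 (CPM) over the 14 libraries. A nuclear RNA score, the mean log2 CPM of 4 nuclear-retained RNAs, spanned 4.73 to 5.85 in the 96 h libraries and 5.06 to 6.31 in the untreated ones, with wider ranges at 24 h (4.26 to 6.75) and 72 h (4.61 to 6.86). Reads assigned to the weak neighbour on the opposite strand of an abundant gene, per 1000 reads of that gene over 41 such pairs, numbered 0.650 to 0.814 in 7 libraries (all of 72 h and 96 h, and 48 h replicate 3) and 0.413 to 0.518 in the other 7. Comparisons of 72 h or 96 h with 24 h or with untreated cells therefore also compare these sets of libraries, and the sets and the treatment cannot be told apart there. A model with the set as a term separates it from treatment through 48 h replicate 3 alone, the 1 library whose set differs from that of its group, so each value given with that term rests on this library. The fibroblast label held, since the collagen gene COL1A1 never fell under 15694 CPM nor the vimentin gene VIM under 4994 CPM, although S100A4 was at 4.58 to 7.46 CPM. Of the epithelial markers, CDH1 had 0 counts and EPCAM at most 9 in every library, while KRT18 reached 39.5 to 61.3 CPM. The summed epithelial list, nearly all of it KRT18 and KRT8, was 71.4 to 78.4 CPM at 96 h and 54.7 to 55.5 CPM in untreated cells. PECAM1, CDH5 and CD3E had 0 counts in every library, whereas TEK (34.0 to 45.7 CPM) and CD68 (43.0 to 60.8 CPM) were detected.

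Ordered by level per kilobase of transcript, which allows genes to be compared, FOSL1 stood highest. FOSL1 averaged 118 ± 8.93 CPM per kilobase (SD, n = 14 libraries) and never overlapped the next gene, EGR1, at 44.1 ± 4.09 CPM per kilobase. JUN followed at 36.3 ± 2.78 CPM per kilobase, its range of 31.0 to 41.6 overlapping that of EGR1 (39.1 to 52.9). JUND (26.6 ± 3.70), FOSL2 (23.9 ± 2.51), JUNB (23.8 ± 2.61) and IER2 (22.2 ± 1.70) overlapped each other on this scale. Far below came FOS at 2.89 ± 1.07, EGR3 at 0.480 ± 0.0863 and FOSB at 0.281 ± 0.136 CPM per kilobase. The classical serum-response genes were thus unequal in these cells, with EGR1 abundant and FOS, FOSB and EGR3 scarce. FOSL2 was scaled by its deposited length of 3985 bases, whereas the GRCh38 transcript of the same RefSeq ID has 6708 bases. At the longer length its level per kilobase would be lower, so its overlap with JUND, JUNB and IER2 depends on the length used.

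**Figure D1:**
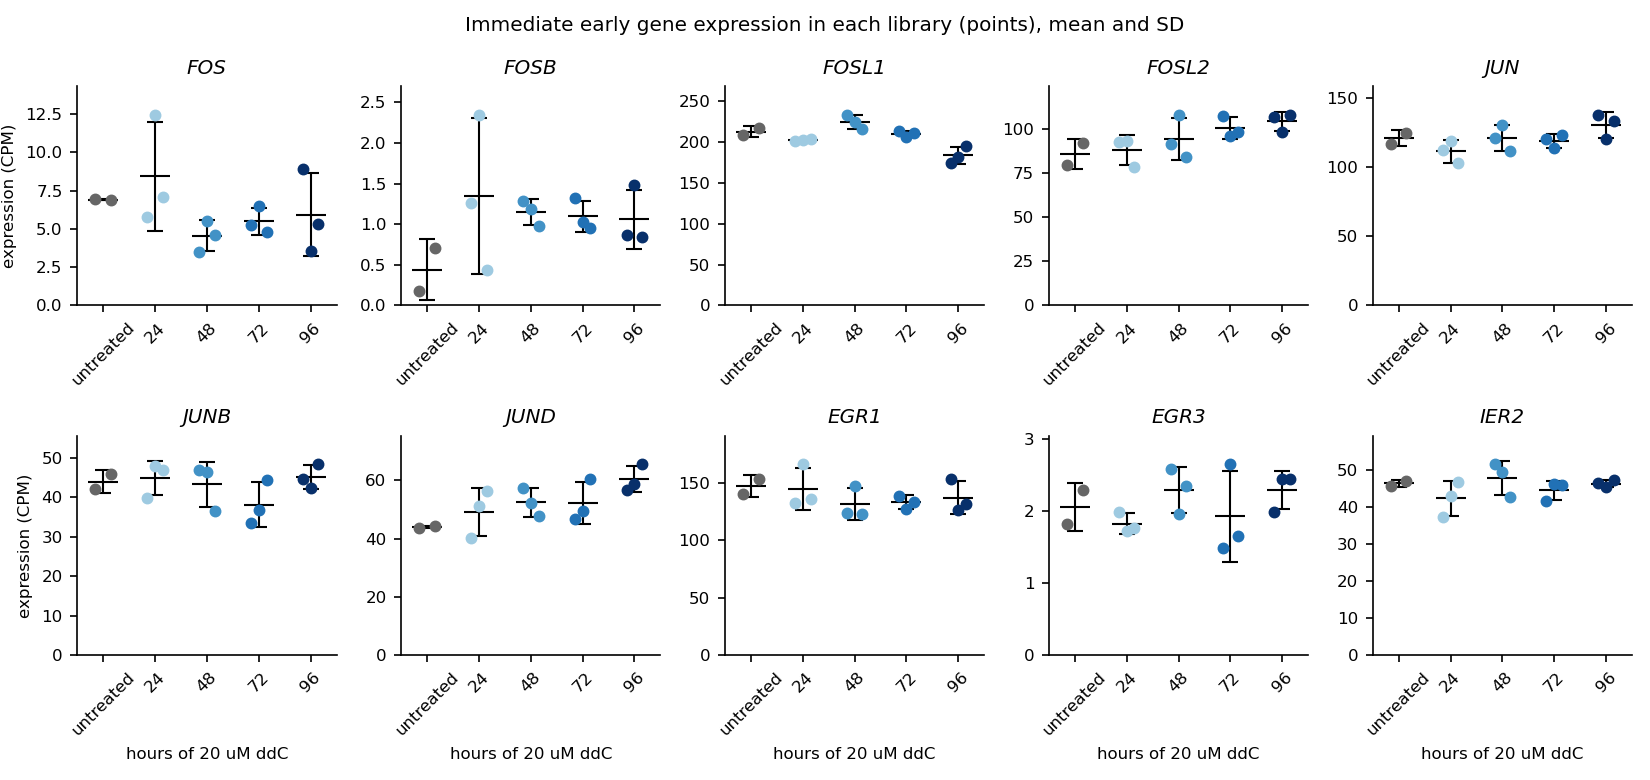
Expression in CPM (y axis, linear, from 0) of the 10 genes in untreated cells and after 24, 48, 72 and 96 h of 20 uM ddC (x axis); points are libraries, and bars give the mean and SD. FOS runs from 3.50 to 12.5 CPM, and the 3 FOSL1 libraries of 96 h, at 175 to 195 CPM, lie below all 11 others.

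Promoters are shown for the genes whose values carry the results below: FOS, EGR1, JUN and JUND. FOS and EGR1 correlated over the 14 libraries, though not by the adjusted test within groups. JUND had the largest fitted difference at 96 h among the well-expressed members. Each run is the 250 bases before the transcription start, 5′ to 3′ on the gene's strand, from RefSeq on GRCh38.p14, a build other than the hg19 of the counts. Capitals mark matches, on either strand, to the TATA box (letters TATAAA), the cAMP response element or CRE (TGACGTCA), the AP-1 site (TGANTCA), the EGR site (GCGNGGGCG) and the CArG box bound by serum response factor. Promoters of 8 of the 10 genes were searched. FOSL1 had no entry in the RefSeq table used, whereas EGR3 was left out when the promoters were selected. The motif counts below therefore say nothing of these genes.
FOS, chr14:75278578-75278827, plus strand: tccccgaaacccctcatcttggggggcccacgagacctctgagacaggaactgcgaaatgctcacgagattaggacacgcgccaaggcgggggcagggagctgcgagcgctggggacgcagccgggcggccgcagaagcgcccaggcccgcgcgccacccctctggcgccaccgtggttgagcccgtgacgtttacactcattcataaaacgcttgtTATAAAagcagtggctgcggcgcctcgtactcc
EGR1, chr5:138465229-138465478, plus strand: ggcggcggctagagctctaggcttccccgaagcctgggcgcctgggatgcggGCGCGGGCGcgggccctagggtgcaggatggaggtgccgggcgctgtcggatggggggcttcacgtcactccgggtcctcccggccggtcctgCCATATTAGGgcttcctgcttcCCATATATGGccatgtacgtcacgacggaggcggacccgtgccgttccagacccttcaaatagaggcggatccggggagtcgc
JUN, chr1:58784048-58784297, minus strand: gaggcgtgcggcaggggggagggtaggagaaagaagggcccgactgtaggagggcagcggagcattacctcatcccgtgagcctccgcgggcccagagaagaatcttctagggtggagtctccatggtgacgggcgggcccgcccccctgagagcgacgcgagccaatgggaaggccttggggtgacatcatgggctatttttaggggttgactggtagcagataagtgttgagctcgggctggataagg
JUND, chr19:18281623-18281872, minus strand: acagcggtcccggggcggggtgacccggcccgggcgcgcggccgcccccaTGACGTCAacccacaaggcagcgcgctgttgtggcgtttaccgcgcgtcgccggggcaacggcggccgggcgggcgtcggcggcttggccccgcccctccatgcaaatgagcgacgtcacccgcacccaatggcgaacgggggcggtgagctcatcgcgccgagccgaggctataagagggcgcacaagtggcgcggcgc

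The FOS promoter held a TATA box at -33 to -28 relative to the start, as did those of FOSB and JUNB at about the same place (3 of the 8, against 10.7% of 35116 RefSeq promoters of this length). EGR1 held 2 CArG boxes, at -105 to -96 and -83 to -74, a motif found in 1.16% of promoters, and an EGR site at -198 to -190 (8.41% of promoters), with no overlap between them. JUND held a CRE at -200 to -193, found in 1.65% of promoters. The AP-1 site, present in 6.57% of promoters, was in 0 of the 8. No motif of the set was found in JUN, FOSL2 or IER2 within these 250 bases. These are matches of letters and not measured binding. For FOS and all the other genes, sites farther upstream than 250 bases were not searched.

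Across the ddC times, 1 of the 10 genes passed the test in any comparison with untreated cells, and it was FOSL1. Tests were edgeR's quasi-likelihood F test with Benjamini-Hochberg adjustment over all 13371 genes, called under 0.05, with n = 3 ddC and 2 untreated libraries. At 24 h, 48 h and 72 h, 0 of the 10 were called, against 0%, 0.00748% and 0.179% of all genes. DESeq2 and limma-voom also called 0 of them at those times, and at an unadjusted p under 0.05 there were 1, 1 and 2 of the 10, beside 3.42%, 6.01% and 7.24% of all genes. Those were FOSB at each of these times and FOSL2 at 72 h. At 96 h the 1 call (FOSL1, lower) compares with 5.68% of all genes called, and 2.11% called lower. At an unadjusted p under 0.05 there were 3 members at 96 h (FOSL1, FOSL2 and JUND), beside 19.8% of all genes. The joint test of any ddC time called 1 member, again FOSL1, against 3.25% of all genes, with 3 at an unadjusted p under 0.05 (all genes 13.2%). Between 96 h and 24 h of ddC, 0 were called (all genes 3.2%), with 4 at an unadjusted p under 0.05 (all genes 15.2%). A linear slope over the 4 ddC times also called 0 (all genes 3.76%), with 4 at an unadjusted p under 0.05 (all genes 15.4%). DESeq2 and limma-voom called 0 in both of these. The median fitted log2 fold change of the 10 genes at 96 h was 0.07, beside -0.00 for all genes tested. In RNA from bulk cells, fewer cells expressing a gene and less of its RNA per cell cannot be told apart.

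Groups that did not overlap in CPM were counted for each comparison. At 96 h against untreated cells, 4 of 10 did not overlap (FOSL1 lower, and FOSB, FOSL2 and JUND higher), beside 40.3% of all genes (19.8% lower and 20.6% higher). At 72 h, 5 of 10 did not (FOS and EGR1 lower; FOSB, FOSL2 and JUND higher), beside 24.2% (12.2% lower and 12% higher), and at 48 h 3 of 10 (FOS lower; FOSB and JUND higher), beside 23.7% (12% lower and 11.7% higher). At 24 h it was FOSL1 alone, lower, beside 15.9% of all genes (8.11% lower). Between 96 h and 24 h of ddC, 4 of 10 did not overlap (FOSL1 lower; FOSL2, JUN and JUND higher), beside 19% (8.2% lower and 10.8% higher). These comparisons share their untreated or 96 h libraries, so the counts are not independent of each other.

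**Figure D2:**
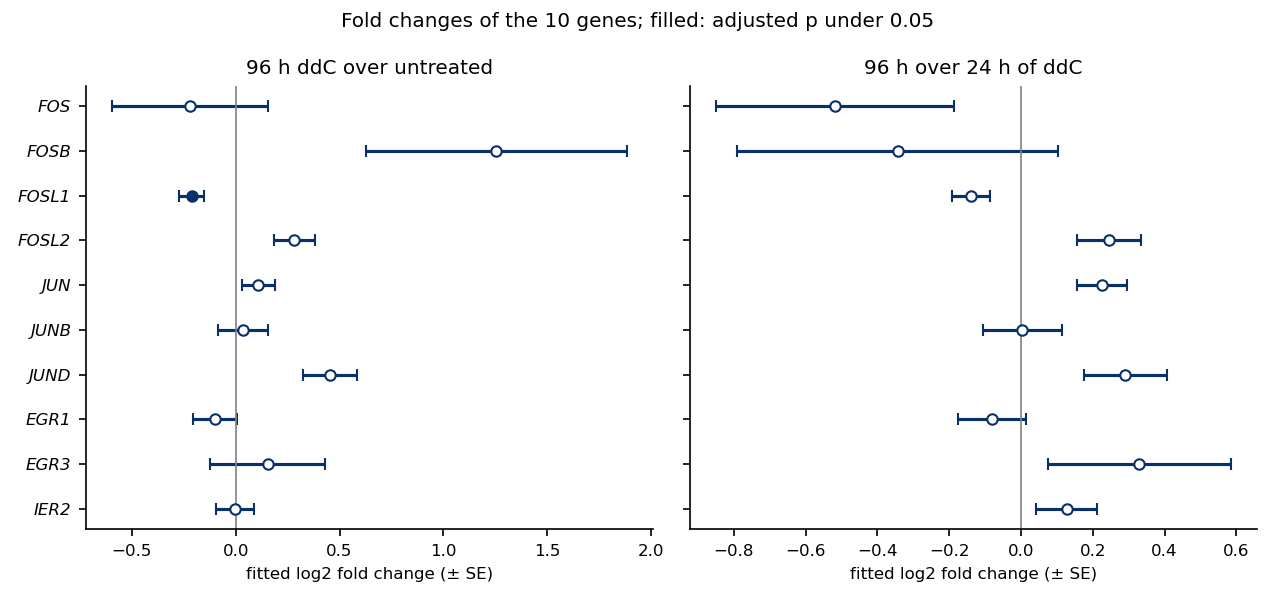
Fitted log2 fold changes with their SE (x axis) of the 10 genes (y axis) at 96 h of ddC over untreated cells (left) and at 96 h over 24 h of ddC (right); a filled point marks an adjusted p under 0.05. FOSL1 at 96 h over untreated cells, -0.21 ± 0.06, is the only filled point, and FOSB has the widest SE, 0.63.

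Among the Fos family, FOSL1 encodes Fra-1, a late Fos protein that lacks the transactivation domain of c-Fos and is known for its part in the motility of mesenchymal cells. Its gene lies on chromosome 11 (hg19 chr11:65659607-65667997, minus strand), and its level rested on 1919 to 2667 reads per library. FOSL1 was at 208 and 217 CPM in untreated cells, 201, 202 and 203 CPM at 24 h, 233, 225 and 216 CPM at 48 h, 213, 206 and 211 CPM at 72 h, and 175, 181 and 195 CPM at 96 h. The 2 highest libraries were of 48 h, 48 h replicate 3 lying between the untreated ones, and each 96 h library lay below every other library. FOSL1 thus averaged 184 ± 10.3 CPM at 96 h (SD, n = 3) and 213 ± 6.65 CPM in untreated cells (n = 2), and it fell by 0.21 ± 0.06 on the log2 scale (edgeR adjusted p = 0.0372). At 24 h, 48 h and 72 h its fitted log2 differences from untreated cells were -0.07 ± 0.06, 0.08 ± 0.06 and -0.02 ± 0.06 (edgeR adjusted p = 0.999, 0.874 and 0.973). In the joint test of all times its edgeR adjusted p was 0.0194, but the FOSL1 call was lost without 48 h replicate 1 (adjusted p = 0.0598), 96 h replicate 1 (0.173) or 96 h replicate 2 (0.102), and once a library set term was included (0.129). Against 24 h, FOSL1 at 96 h differed by -0.14 ± 0.05 (edgeR adjusted p = 0.19). The 96 h call was lost without untreated replicate 1 (edgeR adjusted p = 0.104), untreated replicate 2 (0.315), 96 h replicate 1 (0.154) or 96 h replicate 2 (0.0895), each time with a lower value at 96 h, and with no filter on low counts (0.052). With the set of libraries as a term in the model the FOSL1 difference was -0.13 (edgeR adjusted p = 0.636).

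FOSL2 encodes Fra-2, the other late Fos protein, and its gene lies on chromosome 2 (hg19 chr2:28615779-28637516, plus strand). It overlaps FLJ31356 on the opposite strand over 1761 bases, a gene that averaged 0.369 CPM. FOSL2 was at 79.7 and 91.8 CPM in untreated cells, 92.7, 92.9 and 78.4 CPM at 24 h, 91.2, 108 and 83.9 CPM at 48 h, 107, 95.7 and 98.2 CPM at 72 h, and 107, 98.1 and 108 CPM at 96 h. All 72 h and 96 h libraries lay above both untreated ones and above all 24 h ones. At 96 h the fitted log2 difference from untreated cells was 0.28 ± 0.10 (edgeR adjusted p = 0.109), and at 72 h it was 0.23 ± 0.10 (adjusted p = 0.657). Within groups, FOSL2 and the nuclear RNA score had a Pearson r of 0.632 over deviations from group means (n = 14), which did not pass (exact permutation p = 0.0664, adjusted over 55 relations 0.332). That r was 0.902 among the libraries of the lower opposite-strand index and 0.232 among those of the higher. With that score as a covariate the FOSL2 difference at 96 h passed the test (edgeR adjusted p = 0.00369), as it did with only the 5 compared libraries in the fit (0.00499).

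FOS encodes c-Fos, the founding early Fos protein, on chromosome 14 (hg19 chr14:75745481-75748937, plus strand), and here it gave 38 to 138 reads per library. FOS was at 6.94 and 6.88 CPM in untreated cells, 5.77, 12.5 and 7.07 CPM at 24 h, 3.50, 5.52 and 4.62 CPM at 48 h, 5.27, 6.48 and 4.77 CPM at 72 h, and 8.90, 3.57 and 5.30 CPM at 96 h. The ddC libraries spread on both sides of the untreated pair, with 24 h replicate 2 highest and 48 h replicate 1 lowest, 3.56-fold apart. Within groups the biological coefficient of variation of FOS was 26.6%, larger than for 97.0% of the 500 genes nearest to it in level, where counting alone gives 11.9%. No time differed from untreated cells by the test: the fitted log2 differences were 0.30 ± 0.37 at 24 h, -0.60 ± 0.39 at 48 h, -0.33 ± 0.38 at 72 h and -0.22 ± 0.38 at 96 h (edgeR adjusted p = 0.999, 0.869, 0.914 and 0.808). Replicate 2 of 24 h set the sign at 24 h, since without it the FOS difference was -0.10.

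FOSB encodes the early Fos protein best known from neurons, on chromosome 19 (hg19 chr19:45971253-45978437, plus strand), and it was near the limit of detection, at 2 to 26 reads per library. FOSB was at 0.173 and 0.705 CPM in untreated cells, 1.26, 2.35 and 0.442 CPM at 24 h, 1.29, 1.19 and 0.972 CPM at 48 h, 1.32, 1.02 and 0.954 CPM at 72 h, and 0.864, 1.48 and 0.841 CPM at 96 h. Every library of 48 h, 72 h and 96 h was above both untreated ones, while those of 24 h overlapped them. FOSB differed from untreated cells by 1.60 ± 0.61 at 24 h, 1.37 ± 0.62 at 48 h and 1.31 ± 0.62 at 72 h on the log2 scale (edgeR adjusted p = 0.999, 0.827 and 0.689). The fitted log2 difference at 96 h was 1.26 ± 0.63 (edgeR adjusted p = 0.275), and it ran from 0.58 to 2.54 as each library was left out. Untreated replicate 1 holds 2 FOSB reads and untreated replicate 2 holds 8, so its untreated level is poorly known at this depth.

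In the Jun family, JUN encodes c-Jun, the main partner of Fos proteins, from a gene with 1 exon on chromosome 1 (hg19 chr1:59246463-59249785, minus strand). JUN was at 117 and 125 CPM in untreated cells, 113, 119 and 103 CPM at 24 h, 121, 130.4 and 112 CPM at 48 h, 120.3, 114 and 124 CPM at 72 h, and 138, 120.1 and 133 CPM at 96 h. The 96 h libraries overlapped the untreated ones but lay above all those of 24 h. JUN at 96 h averaged 130.5 ± 9.32 CPM, 112 ± 8.24 CPM at 24 h (SD, n = 3 each) and 121 ± 5.76 CPM in untreated cells (n = 2). The fitted log2 difference of 96 h from 24 h was 0.23 ± 0.07 (edgeR adjusted p = 0.0909), and of 96 h from untreated cells 0.11 ± 0.08 (adjusted p = 0.476). Its slope over the ddC times was 0.07 ± 0.02 per 24 h (edgeR adjusted p = 0.117).

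JUND encodes the Jun protein that resting cells express steadily and that is associated with slower growth, from a gene with 1 exon on chromosome 19 (hg19 chr19:18390504-18392466, minus strand). JUND was at 43.8 and 44.4 CPM in untreated cells, 40.1, 51.1 and 56.3 CPM at 24 h, 57.3, 52.4 and 47.6 CPM at 48 h, 46.8, 49.6 and 60.3 CPM at 72 h, and 56.9, 58.7 and 65.5 CPM at 96 h. Of the 12 ddC libraries, 24 h replicate 1 alone was not above both untreated libraries. JUND averaged 60.4 ± 4.52 CPM at 96 h (SD, n = 3) and 44.1 ± 0.397 CPM in untreated cells (n = 2), a fitted log2 difference of 0.45 ± 0.13 that narrowly missed the threshold (edgeR adjusted p = 0.0568). The earlier differences were 0.16 ± 0.13 at 24 h, 0.25 ± 0.13 at 48 h and 0.24 ± 0.13 at 72 h (edgeR adjusted p = 0.999, 0.831 and 0.734), and JUND at 96 h exceeded 24 h by 0.29 ± 0.12 (adjusted p = 0.231). At 96 h JUND was called by DESeq2 (adjusted p = 0.013), with the nuclear RNA score added as a covariate (edgeR adjusted p = 0.00285), with only the 5 libraries compared (7.45e-05), and when any of 5 libraries of the other times was left out, namely 24 h replicates 1 (0.0118) and 3 (0.0238), 48 h replicate 1 (0.0493) and 72 h replicates 1 (0.0439) and 3 (0.0159). It was not called when either untreated library was left out (edgeR adjusted p = 0.232 and 0.267), nor with the library set as a term, where the JUND difference was 0.66 (adjusted p = 0.189). JUND also has the richest transcript in G and C, at 69.7%, above 98.9% of genes. The tenth of genes with the highest GC content (62.3% or more, 1269 of the 12686 tested genes with a value) had a median log2 difference of 0.11 at 96 h, beside -0.00 for all of them, and its part in the JUND value was not tested.

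JUNB, whose early product can oppose c-Jun, lies on chromosome 19 (hg19 chr19:12902310-12904125, plus strand). JUNB was at 42.1 and 46.0 CPM in untreated cells, 39.9, 48.0 and 46.9 CPM at 24 h, 46.9, 46.4 and 36.6 CPM at 48 h, 33.4, 36.8 and 44.5 CPM at 72 h, and 44.6, 42.4 and 48.4 CPM at 96 h. Its groups overlapped at every time. The fitted log2 difference was 0.04 ± 0.12 at 96 h (edgeR adjusted p = 0.911) and lowest at 72 h, at -0.21 ± 0.12 (adjusted p = 0.777).

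EGR1 encodes a zinc finger activator of growth and matrix genes, on chromosome 5 (hg19 chr5:137801181-137805004, plus strand). EGR1 was at 140.1 and 154 CPM in untreated cells, 133, 166 and 136 CPM at 24 h, 124, 148 and 123 CPM at 48 h, 139, 127 and 133 CPM at 72 h, and 153, 126 and 132 CPM at 96 h. As for FOS, the highest library was 24 h replicate 2, and at 96 h replicate 1 was the highest of its group for both genes. EGR1 differed from untreated cells by -0.02 ± 0.11 at 24 h, -0.16 ± 0.11 at 48 h, -0.14 ± 0.11 at 72 h and -0.10 ± 0.11 at 96 h on the log2 scale (edgeR adjusted p = 0.999, 0.868, 0.84 and 0.65). Its biological coefficient of variation of 8.26% was above that of 93.8% of the 500 genes nearest in level.

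EGR3, a family member induced in part by EGR1 and best studied in nerve, muscle and lymphocytes, lies on chromosome 8 and gave 18 to 31 reads per library. EGR3 was at 1.82 and 2.29 CPM in untreated cells, 1.99, 1.72 and 1.77 CPM at 24 h, 2.58, 1.95 and 2.35 CPM at 48 h, 1.48, 2.64 and 1.65 CPM at 72 h, and 1.99, 2.44 and 2.44 CPM at 96 h. The groups overlapped throughout, and the fitted log2 difference at 96 h was 0.15 ± 0.28 (edgeR adjusted p = 0.816). Its biological coefficient of variation was 10.0%, larger than for 23.2% of the 500 genes nearest in level, where counting alone gives 20.5%. At this depth counting noise thus exceeds that value. EGR2, a further relative, was too low to be tested, at a mean of 0.259 CPM at 96 h and 0.393 CPM in untreated cells.

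IER2, an immediate early gene that encodes a small nuclear protein, lies on chromosome 19 (hg19 chr19:13261282-13265718, plus strand). IER2 was at 45.6 and 47.0 CPM in untreated cells, 37.2, 42.9 and 46.6 CPM at 24 h, 51.4, 49.5 and 42.7 CPM at 48 h, 41.5, 46.1 and 45.9 CPM at 72 h, and 46.3, 45.3 and 47.1 CPM at 96 h. The 96 h and untreated libraries fell within 1.04-fold and 1.03-fold of their own group, and the 2 groups overlapped. The fitted log2 difference at 96 h was -0.00 ± 0.09 (edgeR adjusted p = 0.993).

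The make-up of each family is given by the share of its summed level per kilobase that each subunit holds. The Fos RNA pool was almost entirely late Fos: FOSL1 and FOSL2 together held 97.8 ± 0.880% of it in the 12 ddC libraries and 97.7 ± 0.0388% in the 2 untreated ones (SD), a difference of 0.0830 points (exact permutation test, two-sided, p = 0.934). Within it, FOSL1 held 78.2 ± 1.76% at 96 h and 83.1 ± 0.822% in untreated cells, and FOSL2 19.5 ± 0.823% at 96 h and 14.7 ± 0.861% in untreated cells. The 3 FOSL2 shares of 96 h lay above those of every other library, whereas for FOSL1 the 96 h libraries lay below the untreated ones but overlapped those of 24 h. FOS held 2.06 ± 0.980% at 96 h and 2.19 ± 0.104% in untreated cells. All Fos shares use the deposited FOSL2 length of 3985 bases, and the longer GRCh38 length would lower the FOSL2 share. Of the Jun pool, JUND held 31.2 ± 2.09% in the 12 ddC libraries and 27.0 ± 0.889% in the 2 untreated ones, 4.19 points more (exact permutation test over 91 arrangements, two-sided, p = 0.022; adjusted over the 2 shares, 0.044; the smallest p possible is 0.011). Of the 12 ddC libraries, 24 h replicate 1 (26.8%) alone did not exceed both untreated ones. Both share tests pool the 4 ddC times into 1 group. In that group 7 libraries have the higher opposite-strand index, as neither untreated library does, and the part of that index in the shares was not tested. JUND's share was 29.96% at 24 h, 30.7% at 48 h, 31.8% at 72 h and 32.4% at 96 h. Without untreated replicate 1 the difference in the JUND share was 4.82 points (exact permutation p = 0.0769), and without untreated replicate 2 it was 3.57 points (exact p = 0.154). With 1 untreated library the smallest exact p is 0.0769, so neither could pass. JUNB held 26.2 ± 0.401% at 96 h and 29.2 ± 0.639% in untreated cells, and JUN held 41.4 ± 2.01% at 96 h and 43.8 ± 0.249% in untreated cells.

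**Figure D3:**
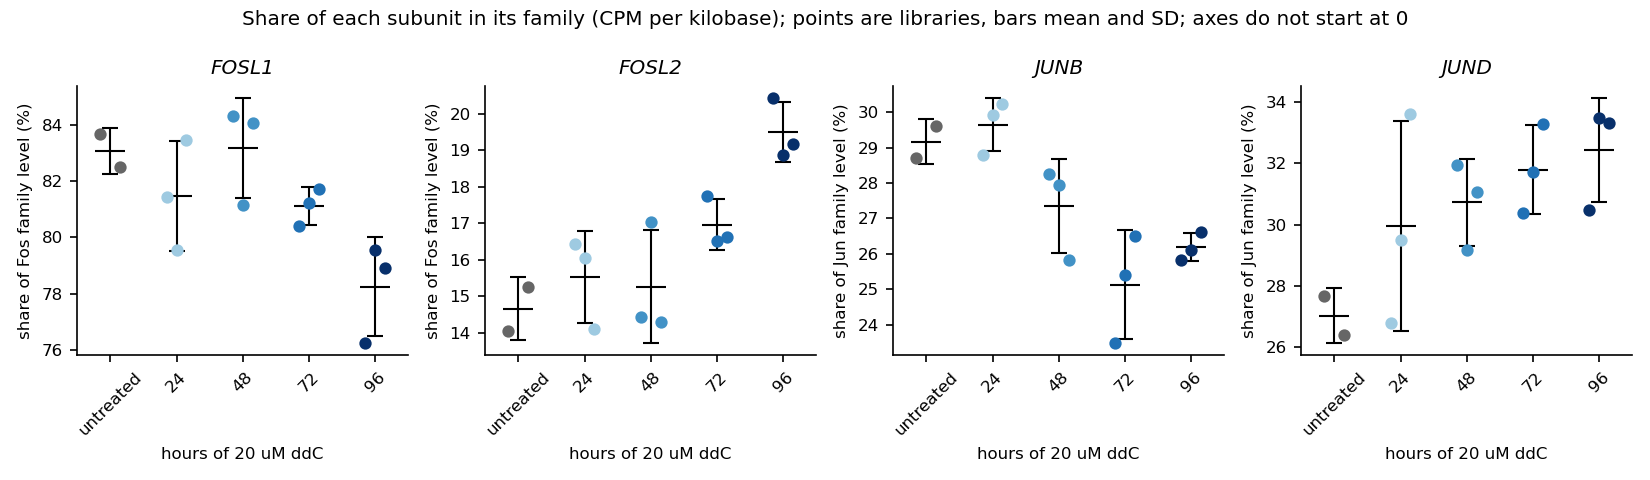
Share (y axis, percent, not from 0) of FOSL1 and FOSL2 in the summed Fos family level and of JUNB and JUND in the summed Jun family level, per library, in untreated cells and at 24, 48, 72 and 96 h of ddC (x axis); bars give the mean and SD. The FOSL2 share is 18.9 to 20.4% in the 96 h libraries and 14.1 to 15.3% in the untreated ones, and the JUND share 30.5 to 33.5% at 96 h and 26.4 to 27.7% in untreated cells.

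The members did not vary as a block over the 14 libraries. Log2 CPM of FOS was compared with each of the other 9 genes. FOS and EGR1 had a Pearson r of 0.826 (permutation p = 0.00022, adjusted over the 9 relations 0.00198) and a Spearman rho of 0.771 (permutation p = 0.00186, adjusted 0.0167). Without the 2 libraries farthest from the median of FOS (24 h replicate 2 and 48 h replicate 1), r was 0.668 and the adjusted p 0.154, so the relation rests in part on those 2 libraries. It was 0.799 on deviations from the group means, where an exact permutation within groups gave p = 0.022 (adjusted over 55 relations, 0.167), and it was 0.845 and 0.747 among the 7 libraries with a low and the 7 with a high opposite-strand index. None of the other 8 relations of FOS passed (adjusted permutation p of 0.684 or more for r), and FOS and FOSB, which share the TATA box above, had an r of -0.06. The nuclear RNA score had an r of deviations of 0.593 with FOS and 0.563 with EGR1 (exact permutation within groups, adjusted p = 0.219 and 0.343), and its part in their relation was not tested.

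Deviations from group means were then correlated for all pairs of members and for the nuclear RNA score, a choice made after seeing the data. None of the 55 relations passed adjustment (permutation within groups, 2592 arrangements), and 4 shared the lowest adjusted p, 0.0955. They were FOSL2 with JUN (r = 0.864, rho = 0.802), JUNB with JUND (r = 0.858, rho = 0.868), JUND with IER2 (r = 0.850, rho = 0.785) and JUNB with IER2 (r = 0.815, rho = 0.815). Without the 2 most distant libraries these r were 0.802, 0.851, 0.833 and 0.700. JUNB, JUND and IER2 are also the 3 members richest in G and C (64.9%, 69.7% and 62.9% of their transcripts), and each had a negative r with the nuclear RNA score (-0.36, -0.63 and -0.42), whereas those of FOS, FOSL2, JUN and EGR1 were positive (0.593, 0.632, 0.432 and 0.563). FOSB had an r of 0.539 with the score, FOSL1 -0.21 and EGR3 0.014. None of these r with the score passed adjustment.

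**Figure D4:**
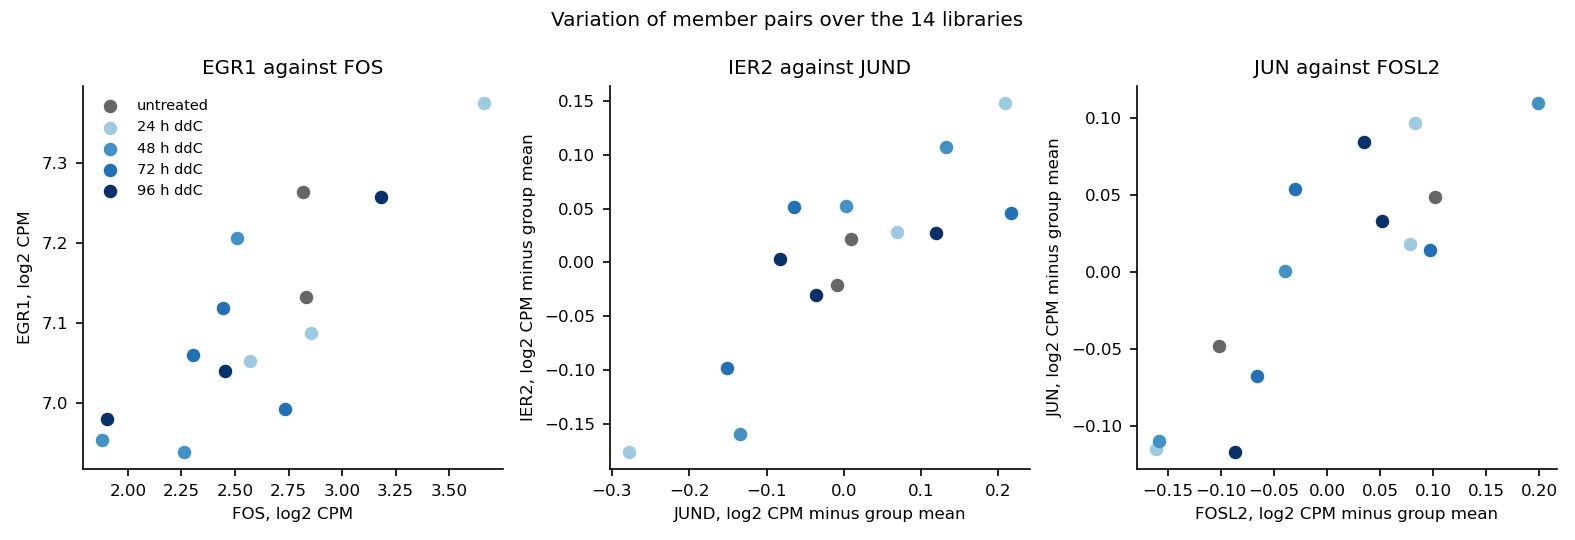
EGR1 against FOS in log2 CPM (left), and IER2 against JUND (middle) and JUN against FOSL2 (right) as log2 CPM minus the group mean; each point is 1 of the 14 libraries, coloured by group. The r are 0.826, 0.850 and 0.864, and 24 h replicate 2 is the point at the top right of the left panel.

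Among 11939 other genes with a mean log2 CPM of at least 1, those whose log2 CPM followed FOS most closely over the 14 libraries were LAMB1 (r = 0.863), ADAMTS5 (0.838) and CELSR3 (0.813). Among the genes closest to EGR1 were TNS3 (r = 0.837) and PTCH1 (0.800), and JUN was followed most closely by GYS1 (0.880), SIDT2 (0.870) and ACTN4 (0.842). PSMD3 (r = 0.943), PLK1 (0.936) and TCF19 (0.934) followed FOSL1. These r are descriptions, being the highest of many and including differences between groups. None of these 11 genes was itself called at 96 h against untreated cells.

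Around the members, 97 tested genes of 6 pathway lists were examined: AP-1 dimer partners, other immediate early genes, factors acting on immediate early promoters, growth factor receptors with the MAP kinase relay, feedback inhibitors, and target genes of AP-1 and EGR1 in fibroblasts. At 24 h, 48 h and 72 h edgeR called 0 of the 97, with 6, 10 and 21 at an unadjusted p under 0.05, beside 3.42%, 6.01% and 7.24% of all genes. DESeq2 called 0, 0 and 1, and limma-voom 0 at each time. At 96 h 15 were called, 10 higher and 5 lower, where 5.68% of all genes were called. At an unadjusted p under 0.05 there were 33 of the 97 at 96 h, beside 19.8% of all genes. DESeq2 and limma-voom each called 14 at 96 h.

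Of 9 dimer partners tested, 2 rose at 96 h and 0 fell, with a median log2 difference of 0.23 (all genes -0.00). Among all genes tested, 5.68% were called at 96 h, and 2.11% were called lower. ATF3, a stress-induced partner of Jun proteins, averaged 9.70 ± 0.417 CPM at 96 h (SD, n = 3) and 4.55 ± 0.548 CPM in untreated cells (n = 2), a log2 rise of 1.09 ± 0.17 (edgeR adjusted p = 0.000321). JDP2, a dimer partner that represses AP-1 sites, averaged 56.0 ± 4.31 CPM at 96 h and 41.8 ± 0.186 CPM in untreated cells, a log2 rise of 0.42 ± 0.09 (edgeR adjusted p = 0.00459). MAFK, a small Maf protein, differed by 0.31 ± 0.10 (edgeR adjusted p = 0.0629).

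Of 17 other immediate early genes tested out of 20 listed, 3 rose at 96 h and 0 fell, with a median log2 difference of 0.16. The shares of all genes were 5.68% called and 2.11% called lower. BTG2, an antiproliferative gene that p53 also induces, averaged 21.8 ± 1.61 CPM at 96 h and 11.4 ± 1.247 CPM in untreated cells, a log2 rise of 0.94 ± 0.13 (edgeR adjusted p = 0.000148). GADD45B, a stress-response gene, rose by 0.48 ± 0.08 (edgeR adjusted p = 0.000753), and KLF2, a zinc finger factor, by 0.47 ± 0.13 (adjusted p = 0.0387).

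Upstream of the members, of 7 factors acting on immediate early promoters, 0 were called by edgeR, DESeq2 or limma-voom, with 2 at an unadjusted p under 0.05 (19.8% of all genes) and a median of -0.05. With the nuclear RNA score in the model 2 of them were called, and with only the compared groups 1. SRF, the serum response factor that binds CArG boxes, averaged 101 ± 4.24 CPM at 96 h and 94.2 ± 6.06 CPM in untreated cells, a log2 difference of 0.10 ± 0.07 (edgeR adjusted p = 0.503). Its coactivator MKL2 differed by -0.32 ± 0.11 (edgeR adjusted p = 0.1), the ETS factor ELK3 by -0.17 ± 0.07 (0.164) and CREB1, which binds the CRE, by -0.14 ± 0.07 (0.311). Of 26 receptor and MAP kinase genes, 1 fell at 96 h and 0 rose, with a median of -0.01, where 5.68% of all genes were called and 2.11% called lower. With the score 2 were called, and with only the compared groups 3. The gene that fell was PDGFRA, a platelet-derived growth factor receptor of fibroblasts, which averaged 199 ± 8.83 CPM at 96 h and 244 ± 0.209 CPM in untreated cells and fell by 0.30 ± 0.07 (edgeR adjusted p = 0.0192). EGFR differed by -0.29 ± 0.11 (edgeR adjusted p = 0.145) and the kinase gene RPS6KA3 by -0.17 ± 0.07 (0.158).

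Of 19 feedback inhibitors, 2 rose at 96 h and 0 fell, with a median of 0.05, where 5.68% of all genes were called and 2.11% called lower. DUSP1, a phosphatase that switches off MAP kinases, averaged 177 ± 7.67 CPM at 96 h and 140.1 ± 10.9 CPM in untreated cells, a log2 rise of 0.33 ± 0.07 (edgeR adjusted p = 0.00519). ZFP36L1, which destabilises short-lived messages, rose by 0.23 ± 0.06 (edgeR adjusted p = 0.027). DUSP14 differed by 0.24 ± 0.08 (edgeR adjusted p = 0.0809), and NAB2, the corepressor of EGR proteins, by 0.02 ± 0.06 (0.879).

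Of 19 target genes tested, 3 rose and 4 fell at 96 h, with a median of 0.05, where 5.68% of all genes were called and 2.11% called lower. MMP3 and MMP1, collagen- and matrix-degrading enzymes with AP-1 sites in their promoters, fell by 1.10 ± 0.24 (edgeR adjusted p = 0.00744) and by 0.59 ± 0.14 (0.0308) on the log2 scale. MMP1 averaged 339 ± 33.4 CPM at 96 h and 510.0 ± 19.6 CPM in untreated cells. MMP3 was scarce, at 2.23 ± 0.170 CPM at 96 h and 4.81 ± 0.191 CPM in untreated cells. HMGA1, a chromatin protein, fell by 0.28 ± 0.08 (edgeR adjusted p = 0.0343), and PLAU, urokinase, by 0.20 ± 0.06 (0.0492). F3, tissue factor, averaged 295 ± 15.4 CPM at 96 h and 221 ± 4.96 CPM in untreated cells, a log2 rise of 0.42 ± 0.07 (edgeR adjusted p = 0.000599). The cytokine genes IL6 and IL11 rose by 0.76 ± 0.21 (edgeR adjusted p = 0.038) and 0.25 ± 0.07 (0.0486). IL6 was also scarce, at 4.99 ± 0.764 CPM at 96 h and 2.93 ± 0.344 CPM in untreated cells.

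**Figure D5:**
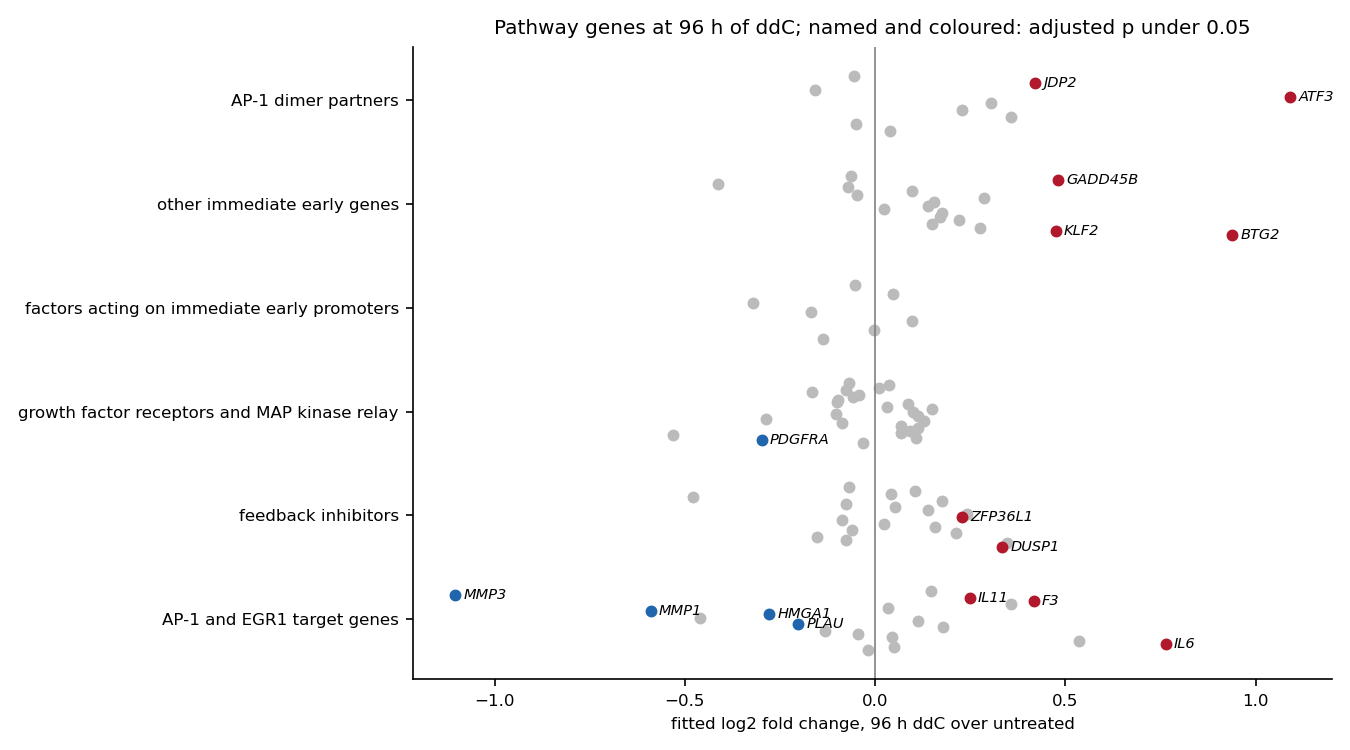
Fitted log2 fold change at 96 h of ddC over untreated cells (x axis) of the 97 tested genes in 6 pathway lists (y axis); vertical scatter within a list has no meaning. Red points rose and blue points fell at an adjusted p under 0.05; ATF3 (1.09) lies farthest to the right and MMP3 (-1.10) farthest to the left.

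Of the 15 pathway calls at 96 h, all 15 kept their direction in all 22 other analyses, and BTG2 was called in every one. ATF3, F3 and GADD45B lost the call solely with the library set as a term (edgeR adjusted p = 0.17, 0.191 and 0.0909). The other 11 also lost it without at least 1 untreated library: DUSP1 without replicate 2 (largest adjusted p over all analyses 0.174), and JDP2 (0.105), MMP3 (0.317), MMP1 (0.187), HMGA1 (0.78), IL6 (0.524), IL11 (0.385), PLAU (0.369), ZFP36L1 (0.209), PDGFRA (0.176) and KLF2 (0.282) without either. Leaving out 96 h replicate 1 also ended the calls of MMP1, HMGA1, IL6, IL11, PLAU, ZFP36L1, PDGFRA and KLF2. Without 96 h replicate 2 those of HMGA1, IL6 and IL11 were lost, and without 96 h replicate 3 those of MMP1, IL11, ZFP36L1, PDGFRA and KLF2. PLAU and IL11 also lost theirs without 48 h replicate 3, 72 h replicate 1 or 72 h replicate 2, and IL11 without 24 h replicate 1. Among the other tools and settings, IL6 and IL11 were not called by limma-voom, KLF2 not by DESeq2, MMP1 not without the filter on low counts, and IL11 and KLF2 not with replicate number as a block. Calls were also gained: with the nuclear RNA score 11 target genes were called in place of 7 and 6 other immediate early genes in place of 3, and the count of other immediate early genes was also 6 with only the compared groups and 5 without 24 h replicate 3.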

How the data were processed

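Per the labels' protocols, polyadenylated RNA was made into stranded TruSeq libraries. The submitters' processing notes name the aligner STAR 2.5.3a, HOMER and the build hg19. The strand setting is not given in the sources used here. The authors deposited raw counts per gene and a transcript length, and each of the 14 columns was matched to its sample by title.

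Genes were tested with edgeR 4.0.16 in R 4.3.3 (TMM, filterByExpr with a minimum count of 10 and a minimum total of 15, robust quasi-likelihood fit of all 14 libraries, 1 mean per group), two-sided. The SE is the size of the log2 change divided by the square root of F. CPM is the count per TMM-scaled total, times 1000000. Log2 CPM used a prior count of 2. Shares and correlations used permutation tests, the latter with 100000 resamples where not exact. GC content came from GRCh38 transcripts of the same RefSeq ID, found for all 10 members and for 94.9% of tested genes. The fit was also run on counts simulated from its own estimates of spread, with no library sets or nuclear RNA differences built in. That run's outcome is not used here.

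The alternatives were median-ratio size factors, DESeq2 1.42.0, limma-voom (limma 3.58.1), no filter, a block for replicate number, a fit of the compared groups alone, each library left out (a lone untreated library is then assumed to vary like the other groups), a covariate for the nuclear RNA score and, chosen after seeing the data, a library set term and only the libraries of the lower opposite-strand index. Members and pathway lists were chosen with earlier results of these data known. Besides the 10 members, the genes named are those called in a list, or up to 3 per list with the smallest p at 96 h, plus EGR2, ATF3, DUSP1, NAB2 and SRF, and the 3 genes most like FOS, EGR1, JUN and FOSL1, except that 2 genes this rule names are not reported here. Replicates of a group differed by more than sampling noise (chi-square per gene 1.64 to 10.3), so none was counted as a duplicate.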

Additional observations from a re-analysis of the deposited data

Results flagged for a closer look

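For 0 of the 10 members did the difference from untreated cells at 96 h and at 24 h of ddC differ by the direct test of 96 h against 24 h, whereas 11 of the 97 pathway genes passed it, beside 3.2% of all genes, and 10 of the 11 are given here. All values are log2 fold changes of 96 h over 24 h ± SE (n = 3 each) with adjusted p from edgeR's quasi-likelihood test, and the 96 h libraries all lie in the set with the higher opposite-strand index and the 24 h libraries in the lower one. ATF3 differed by 0.63 ± 0.14 (adjusted p = 0.0116), averaging 9.70 ± 0.417 CPM at 96 h and 6.26 ± 0.537 CPM at 24 h. IL6 differed by 0.73 ± 0.19 (0.0381). MMP3 differed by -1.06 ± 0.22 (0.00754), the larger fall of the 2 genes that were lower. BTG2 differed by 0.42 ± 0.11 (0.0422). IL11 differed by 0.39 ± 0.07 (0.000853), and F3 by 0.36 ± 0.06 (0.000853). DUSP1 differed by 0.35 ± 0.06 (0.00138). CYR61 and CTGF, secreted matricellular genes, differed by 0.32 ± 0.08 (0.0287) and 0.19 ± 0.05 (0.0201). PDGFRA differed by -0.26 ± 0.07 (0.0326).

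As each library was left out, the 96 h against 24 h calls of MMP3, IL11, F3 and DUSP1 were kept each time. ATF3 lost its call without 96 h replicate 2 (adjusted p = 0.052). BTG2 lost it without any of 6 libraries, namely 24 h replicates 1 and 3, 48 h replicate 1 and each 96 h replicate (largest adjusted p 0.216). CYR61 also lost it without any of 6, namely both untreated replicates, 24 h replicates 2 and 3 and 96 h replicates 1 and 3 (up to 0.148). CTGF lost it without 24 h replicate 3 or any 96 h replicate (up to 0.0899), and PDGFRA without 24 h replicate 2 or any 96 h replicate (up to 0.167). IL6 lost it without 24 h replicate 1 or 3 or 96 h replicate 1 or 2 (up to 0.143). With only the compared groups, IL6 (0.0715), PDGFRA (0.0532), CTGF (0.0602) and BTG2 (0.0539) were not called, and IL6 (0.12) and BTG2 (0.0647) were not called by DESeq2, nor IL6 by limma-voom (0.0541). With the library set as a term all 10 were lost, from DUSP1 (0.0999) to ATF3 (0.737), a term that rests on 48 h replicate 3.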

How the results depend on the processing

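Of 60 log2 values of the 10 members, recomputed 1339 times, 1260 kept direction and side of the threshold, 55 reversed, 6 lost a call and 18 gained one. At 96 h the directions of FOSL1, FOSL2, JUN and JUND were the same in every analysis. No reversed value was larger than 0.344 in the fit as reported, and none passed the test when reversed (lowest adjusted p 0.515). Calls over all genes also moved with the setting. At 96 h (759 as reported) they were 1848 with the nuclear RNA score, 1646 with only the compared groups, 776 by DESeq2 and 121 with the set term. With that score they were 1363 in the joint test (435 as reported), 1087 for 96 h against 24 h (428) and 1272 by slope (503). Counts of members called at 96 h (1 as reported) were 0 with no filter, 3 with the nuclear RNA score, 0 with the library set term, 3 with only the compared groups, 2 by DESeq2 and 0 to 2 as each library was left out. For the joint test (1) they were 4 with the score, 0 with the set term and 0 to 1 leaving libraries out (0 without 48 h replicate 1, 96 h replicate 1 or 96 h replicate 2). With the score, 3 members were called at 96 h against 24 h and 4 by slope (0 each as reported), and the slope gave 0 to 1 leaving libraries out (1, FOSL2, without 48 h replicate 2).

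Reversed log2 values were as follows, and the cause was not tested. With the set term they were JUN 0.054 and JUNB 0.083 at 48 h, FOSL1 0.067, JUN 0.14, JUNB 0.14, EGR1 0.0050 and IER2 0.18 at 72 h, EGR1 0.045 and IER2 0.24 at 96 h, FOSB 0.00072 and EGR1 0.065 for 96 h against 24 h, FOSB 0.018, JUNB 0.11 and EGR1 0.031 for the slope. At 48 h JUN was 0.00075 with no filter, 0.010 with the score and 0.046 among the libraries of the lower index, where JUNB was 0.075. JUNB for 96 h against 24 h was -0.016 with the score. As each library was left out, values crossed 0 for EGR1 -0.13 to 0.048, FOS -0.10 to 0.49, FOSL2 -0.063 to 0.14 and JUNB -0.034 to 0.10 at 24 h, EGR3 -0.0051 to 0.33, IER2 -0.0067 to 0.12, JUN -0.060 to 0.054 and JUNB -0.093 to 0.083 at 48 h, EGR3 -0.39 to 0.076, FOSL1 -0.053 to 0.013 and JUN -0.074 to 0.025 at 72 h, EGR3 -0.0049 to 0.33, FOS -0.64 to 0.040, IER2 -0.026 to 0.019 and JUNB -0.031 to 0.10 at 96 h, EGR1 -0.17 to 0.028, FOSB -0.79 to 0.36 and JUNB -0.069 to 0.052 for 96 h against 24 h, EGR1 -0.049 to 0.010 and FOSB -0.24 to 0.10 for the slope. The late Fos share ran from -0.0030 to 0.285 points and the JUND share from 3.57 to 4.82 points. On deviations from group means the r of FOS was 0.107 with FOSB, 0.320 with FOSL2 and 0.164 with IER2, and 0.188 with IER2 without the 2 farthest libraries.

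Same-numbered replicates did not pair throughout (12 of 26 pairs correlated above 0.1, range -0.544 to 0.758, and 6 of 14 libraries correlated best with their own number). Replicate 2 of untreated cells, 24 h, 48 h and 72 h did correlate with each other (r of 0.405 to 0.678). Each of these correlated negatively with 96 h replicate 2 (-0.535 to -0.186). With the replicate number as a block, EGR1 at 24 h was 0.0085 and JUN at 48 h 0.016, both reversed; FOSL1 at 96 h was -0.22 (adjusted p 0.0461) and 687 genes were called at 96 h, while IL11 and KLF2 were not.

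Over all genes, the count called at 96 h (759 as reported) was 1848 with the score, 1646 with only the compared groups, 121 with the set term and 174 to 1034 leaving libraries out. At 72 h (24) it was 47 with no filter, 243 with the score, 0 with the set term, 7 with only the compared groups, 57 by DESeq2 and 1 to 35 leaving libraries out; at 48 h (1) it was 3 with no filter, 34 with the score, 2 with the set term and 0 in the lower-index libraries; at 24 h (0) it was 1 with no filter, with the score and by DESeq2. The joint count (435) was 1363 with the score and 91 with the set term, that of 96 h against 24 h (428) was 1087 and 37, and that of the slope (503) was 1272 and 26. Depth limits FOSB (2 to 26 reads per library), EGR3 (18 to 31) and FOS (38 to 138).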

Other observations

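JUND was the member with the closest followers among the other 11939 genes. Over the 14 libraries CREB3L1, a membrane-bound relative of CREB known for collagen secretion, had an r of 0.977 with JUND, the proteoglycan synthesis gene CHPF an r of 0.969, and UQCR11, a subunit of respiratory complex III, an r of 0.962. These genes were picked with their values in view, and the r are descriptions without a test. CREB3L1 rose at 96 h of ddC against untreated cells by 0.27 ± 0.07 on the log2 scale (edgeR adjusted p = 0.0293), whereas CHPF differed by 0.44 ± 0.14 (0.0954) and UQCR11 by 0.28 ± 0.09 (0.0779). For JUNB the closest gene was SQSTM1 (r = 0.904), which encodes the autophagy receptor p62, and for FOSL2 it was RUSC2 (r = 0.916).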
